A study of Arabidopsis thaliana with 20 samples.

Results

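The response of wild-type (WT) Arabidopsis thaliana roots to 1 hour of cytokinin (CK) was measured by comparing 2 arrays of CK-treated WT with 2 arrays of mock-treated WT, which are 4 of the 20 arrays of the study. All 20 arrays hold root RNA of 10-day-old seedlings of the Col-0 ecotype or of mutants. The CK was the synthetic cytokinin benzyladenine (BA) at 5 μM, given to whole seedlings, and the roots were cut off near the junction with the hypocotyl. The composition of the mock treatment is not given in the sources used here. Untreated WT (2 arrays) and untreated loss-of-function mutants of ARR1, ARR10, and ARR12 (7 single, double, and triple mutants, 2 arrays each, built from the T-DNA insertion alleles arr1-3, arr10-5, and arr12-1) make up the other 16 arrays. The mutants were not given CK. The study describes the 2 arrays of a condition as biological replicates. The question of the comparison was which genes of the root respond to CK from outside.

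CKs are adenine-derived plant hormones. They bind histidine kinase receptors in the membrane, which pass a phosphate through shuttle proteins to the type-B ARRs, transcription factors that switch on early CK response genes. Among these genes are the type-A ARRs, which lack a DNA-binding domain and dampen the pathway in turn, and the CK oxidases, which break CK down. In the root, CK limits the size of the meristem and promotes differentiation, in balance with auxin.

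Signals are given on the log2 scale after quantile normalization, so that a difference of 1 is a doubling, and the arrays are named CK 1, CK 2, mock 1, and mock 2. A probe was called when the Benjamini-Hochberg adjusted p of limma, fitted over all 20 arrays, was under 0.05 among the 34034 probes tested. The 4 arrays were alike in the share of probes above background (74.0% to 75.8%), but mock 1 stood apart. The scanner software marked 386 of its spots as outliers, against 1 to 4 on the other 3 arrays, and the median absolute log2 difference across probes was 0.163 between the mock arrays and 0.0847 between the CK arrays. Mock 1 differed from CK 1 and CK 2 by 0.238 and 0.240, and mock 2 differed from them by 0.161 and 0.152, no more than from mock 1. Each of the 4 arrays lay on a slide of its own, so slide and treatment cannot be told apart. Replicate 1 of both treatments was scanned on one day and replicate 2 on another. The slides of untreated WT also held the mutants, and no mock or CK array. A difference of mock or CK from untreated WT therefore cannot be told apart from one of slide. The labelled tissue could be checked on the 5 root markers that were paired with a probe (of 12 listed). All 5 are also root hair genes, so other cell types of the root were not checked. They were well above background on every one of the 4 arrays. The log2 of their summed signal was 13.53 and 14.18 on the mock arrays, 14.49 and 14.30 on the CK arrays, and 15.16 and 15.53 in untreated WT. Of 14 photosynthesis genes listed as shoot markers 1 was paired, LHB1B1, with a signal well above background on these arrays. It was 9.89 and 10.27 on the mock arrays, 10.15 and 10.21 on the CK arrays, and 11.12 and 11.33 in untreated WT. Fewer cells of a type and less RNA per cell cannot be told apart in whole roots.

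CK for 1 hour changed 2238 probes, of which 1206 rose and 1032 fell, that is 3.54% and 3.03% (6.58% in all) of the probes tested. The increases were the larger changes. Of the probes that rose, 528 changed by at least 1 on the log2 scale, 148 by at least 2, and 46 by at least 3, and of those that fell, 262, 41, and 6 did. The median change was 0.91 among the probes that rose, −0.74 among those that fell, and 0.03 over all probes tested. Of the calls, 1203 increases and 1029 decreases had a value on all 4 arrays, and both CK arrays lay beyond both mock arrays at each of these. This also held for 33.1% (above) and 25.6% (below) of the 33915 probes with a value on all 4 arrays. The other 3 calls in each direction lacked a value on an array. With scan day as a block, 2048 rose and 1839 fell over the 20 arrays, and 0 and 0 in a fit on the 4 arrays. Without the block, the fit on the 4 arrays had 371 increases and 243 decreases. The counts depended on single arrays. They were 565 and 538 without mock 1, 610 and 514 without CK 1, 621 and 474 without CK 2, and 1316 and 993 without mock 2. With each array scaled to its 75th percentile in place of quantile normalization, 1006 rose and 1332 fell, so the share of increases among the calls went from 53.9% to 43.0%, and the median change over all probes was −0.03.

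**Figure D1:**
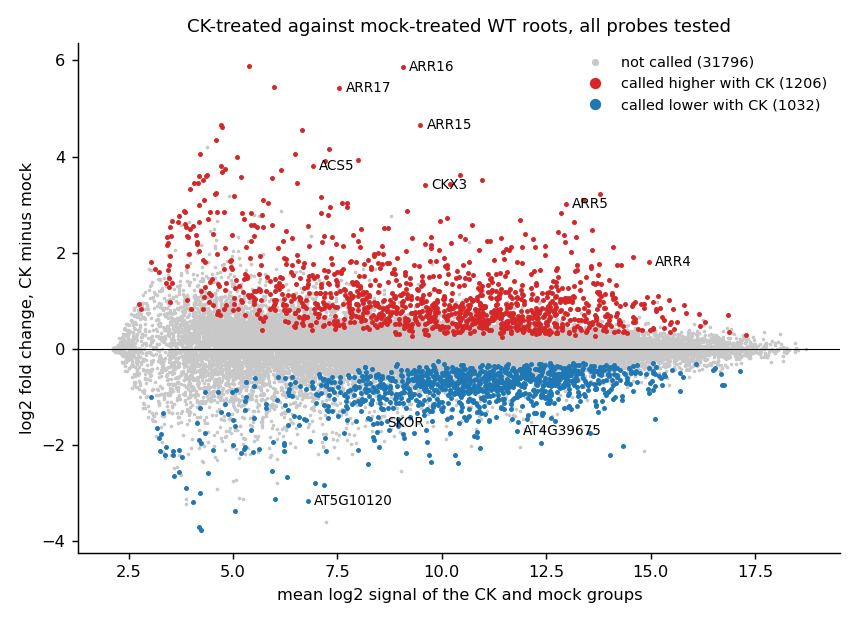
Log2 fold change of CK-treated over mock-treated WT roots (vertical axis) against the mean log2 signal of both groups (horizontal axis), with 1 point for each of the 34034 probes tested, red where called higher with CK (1206) and blue where called lower (1032). The type-A ARRs lie at the upper edge at high and at low signals, and few of the decreases reach the size of the largest increases.

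**Figure D2:**
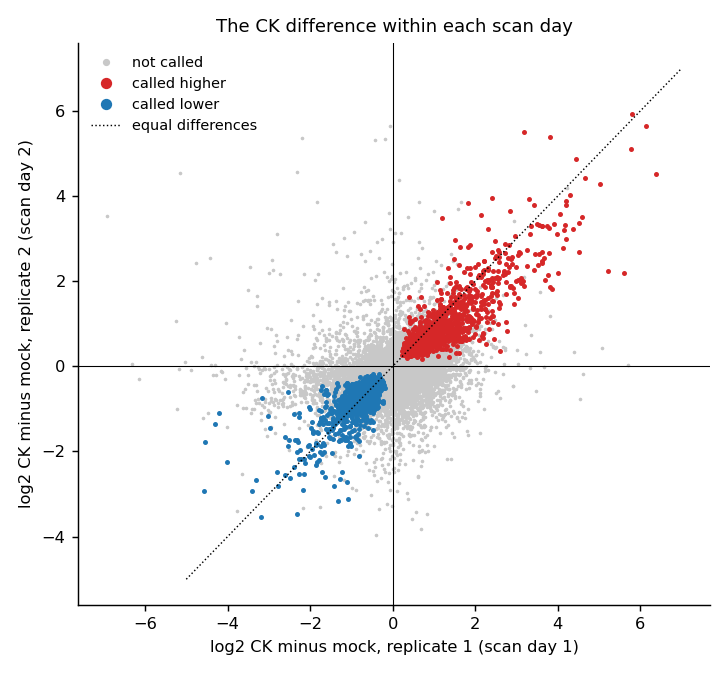
Log2 difference of CK minus mock at each probe in replicate 1 (horizontal axis, scan day 1) and in replicate 2 (vertical axis, scan day 2), red for probes called higher and blue for probes called lower. Called probes lie along the dotted line of equal differences, those that rose in the upper right and those that fell in the lower left. The calls were made from these same arrays, so this position follows largely from the calling. The differences join arrays by replicate number, which did not pair mock and CK.

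The arrays identify each probe by a code without its gene. Genes were paired with probes for 2072 loci that the study had listed for their changes in the untreated mutants, most of them (1997) for lower signals there, so the genes named below are a selected part of the genome, and the other probes have no gene name here. Of the 2023 paired genes tested, 277 (13.7%) rose and 84 (4.15%) fell with CK, the shares beside which the counts of the lists below stand. Of the 76 genes and probes named for their calls, 39 were not called in the fit on the 4 arrays. Among them were 20 that were called whichever array was left out, with adjusted p of 0.0506 to 0.192 (ACS5, ARR6, AT1G34520, AT2G22750, AT2G30540, AT2G34060, AT2G36180, AT4G39675, AT5G43175, AXR3, CYCP4;1, CYCP4;3, CYP705A5, EXPA12, LOG2, MYB32, SAUR9, WRKY71, A_84_P210738, and A_84_P843444).

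The 8 type-A ARRs that could be paired (of 10) all rose, by 1.81 to 5.87 on the log2 scale (3.51-fold to 58.5-fold), with a median of 2.82 beside 0.03 for all probes. ARR16 had a signal of 6.14 and 6.12 on the mock arrays and 11.95 and 12.06 on the CK arrays, an increase of 5.87 (standard error 0.34, adjusted p = 8.58e-07 from limma). ARR17 was at 4.57 and 5.10 with mock, well above background on mock 2 and not on mock 1, and at 10.33 and 10.20 with CK, an increase of 5.43 (standard error 0.42, adjusted p = 8.08e-06 from limma). Both mock arrays lay far below both CK arrays at these genes. ARR15 rose from 6.84 and 7.47 to 11.87 and 11.75, by 4.65 (standard error 0.25, adjusted p = 5.74e-07 from limma).

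The other paired type-A ARRs, all well above background with mock, had smaller increases on the log2 scale. ARR5 was at 11.39 and 11.53 with mock and at 14.36 and 14.58 with CK (an increase of 3.01). ARR7 was at 11.82 and 11.87 with mock and at 14.38 and 14.57 with CK (2.63). ARR3 went from 9.28 and 9.62 to 12.03 and 12.02 (2.57), ARR6 from 10.75 and 11.36 to 13.23 and 13.44 (2.28), and ARR4 from 13.87 and 14.25 to 15.86 and 15.89 (1.81). No CK array overlapped a mock array at any of the 8 genes, as at every call with a value on all 4 arrays. The 8 calls were made whichever of the 4 arrays was left out, and their adjusted p in the main fit was at most 7.17e-05. In a fit on the 4 arrays alone, the call of ARR6 was lost (adjusted p = 0.0506). The largest changes were smaller on other processings of the signal. The deposited log2 values, which keep the local background, gave increases of 5.04 for ARR16 and 4.06 for ARR17, and the normexp background correction gave 4.73, 3.67, and, for ARR15, 4.05. The levels of 4 of the 8 genes (ARR3, ARR6, ARR15, and ARR16) were lower with mock than in untreated WT. ARR16, for example, was at 7.91 and 8.01 in untreated WT, and all 8 were higher on both CK arrays than on both untreated arrays.

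**Figure D3:**
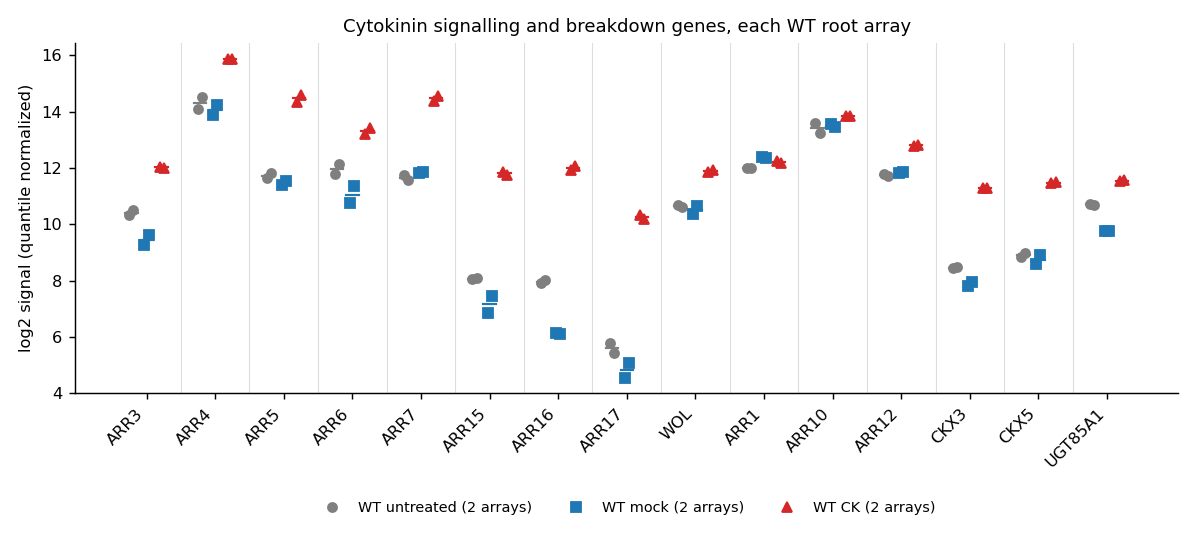
Log2 signal (vertical axis) of 15 CK signalling and breakdown genes on each WT array, grey circles for untreated, blue squares for mock, and red triangles for CK, with a short line at each group mean (2 arrays). The CK arrays stand above the mock and untreated arrays at the type-A ARRs, WOL, CKX3, CKX5, and UGT85A1, and the 3 groups lie close together at ARR1 and ARR10.

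Upstream of these genes, WOL was the 1 receptor of 3 that could be paired. WOL, which encodes the CK receptor CRE1/AHK4, had a signal of 10.37 and 10.64 with mock and 11.86 and 11.95 with CK, and rose by 1.40 (standard error 0.16, adjusted p = 0.000151 from limma). Untreated WT was at 10.71 and 10.60, close to mock. The type-B ARRs that were lost in the mutants did not pass the test in CK-treated WT. ARR1 was at 12.39 and 12.37 with mock and 12.24 and 12.16 with CK, and ARR10 at 13.55 and 13.45 with mock and 13.85 and 13.85 with CK (adjusted p = 0.423 and 0.534). ARR12 was at 11.84 and 11.87 with mock and 12.80 and 12.83 with CK, a difference of 0.95 (standard error 0.27, adjusted p = 0.0546 from limma). The spread of this probe was pooled over all groups, mutants of ARR12 included. A fit on the 4 arrays alone gave an adjusted p of 0.0382 for the same difference, the deposited values gave 0.000172, and 75th percentile scaling gave 0.0232. None of the 6 histidine phosphotransfer proteins or the 6 cytokinin response factors listed was paired with a probe.

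The genes that remove active CK rose as well. CKX3 and CKX5 encode CK oxidases, and UGT85A1 a glycosyltransferase that acts on zeatin-type CKs. CKX3 was at 7.82 and 7.95 with mock and 11.31 and 11.30 with CK, an increase of 3.42 (standard error 0.16, adjusted p = 2.39e-07 from limma). CKX5 was at 8.58 and 8.93 with mock and 11.47 and 11.49 with CK (an increase of 2.73), and UGT85A1 at 9.75 on both mock arrays and 11.53 and 11.59 with CK (1.81). These were the 3 paired genes of the 10 listed for CK breakdown and glucosylation. None of their CK and mock arrays overlapped, as at every call with a value on all 4 arrays. LOG2, whose family releases active CK from its nucleotide form, was the 1 paired gene of 18 listed for CK synthesis. Its signal was 3.64 on mock 1, where it was not well above background, 6.86 on mock 2, and 9.25 and 9.05 on the CK arrays. It rose by 3.90 (standard error 0.70, adjusted p = 0.00454 from limma), but by 2.29 without mock 1, by 5.51 without mock 2, and by 2.58 in the deposited table and 2.31 with normexp, and it was not called in the fit on the 4 arrays (adjusted p = 0.192). In untreated WT it was at 9.36 and 9.32, level with the CK arrays.

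Of 7 genes that the study places in its hormone network, 6 rose. ASL9, a LOB domain transcription factor, was at 11.23 and 11.59 with mock and 13.53 and 13.57 with CK (an increase of 2.14, adjusted p = 6.41e-06 from limma). MEE3, a small MYB-like protein, rose from 6.22 and 6.57 to 8.36 and 8.22 (1.89, or 1.26 with normexp). SHY2 is an Aux/IAA repressor of auxin responses through which CK is known to limit the root meristem. It was at 10.89 and 10.90 with mock and 12.72 and 12.70 with CK, an increase of 1.82 (standard error 0.16, adjusted p = 1.92e-05 from limma). For ASL9 and SHY2 the untreated arrays lay close to the mock arrays, at 11.19 and 11.40 and at 11.09 and 11.11. NAC101, a NAC factor of xylem vessel formation, rose by 0.88, a call that was lost without mock 1, CK 1, or CK 2 (adjusted p up to 0.146). AT1G30260, of unknown function, was at 8.93 and 9.09 with mock and 8.98 and 8.95 with CK (adjusted p = 0.939).

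The last 2 genes of this network, ACS5 and EXPA15, had other levels in untreated WT than with mock. ACS5, which makes the precursor of ethylene, was at 4.40 and 5.64 on the mock arrays (well above background on mock 2 and not on mock 1), 8.78 and 8.85 on the CK arrays, and 8.59 and 8.89 in untreated WT. It rose by 3.79 over mock (standard error 0.34, adjusted p = 2.42e-05 from limma), by 3.18 without mock 1 and 4.41 without mock 2, and by 2.64 in the deposited table and 2.30 with normexp, and it was not called in the fit on the 4 arrays (adjusted p = 0.0582). EXPA15, an expansin that loosens cell walls, was at 12.89 and 13.09 with mock, 14.44 and 14.59 with CK, and 14.12 and 14.26 in untreated WT, and rose by 1.53 over mock (adjusted p = 8.39e-06 from limma). At ACS5 the CK and untreated arrays overlapped, and at EXPA15 the CK arrays lay just above. Over the cytokinin lists together, 19 of 23 tested genes rose and none fell, where 13.7% and 4.15% of all paired genes did. The median change of the 23 was 2.14, and at an unadjusted p under 0.05 a further gene, ARR12, passed. The study had named the 7 network genes for their changes in the untreated mutants.

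Outside these lists, large increases were found at genes of little known function. AT5G27260, annotated as an unknown protein, went from 5.13 and 5.33 with mock to 9.43 and 9.35 with CK, an increase of 4.16 (standard error 0.14, adjusted p = 3.18e-08 from limma), or 2.93 in the deposited table and 2.62 with normexp. AT2G34010, also unknown, was at 4.04 and 4.90 with mock and 8.63 and 8.40 with CK (4.05, or 2.41 and 2.05 with those settings), and it was well above background on mock 2 and not on mock 1. AT4G25410, annotated as a transcription factor, rose from 8.34 and 8.62 to 11.87 and 11.93 (3.42). At these genes both replicates moved by more than 3. AT1G34520, of a wax synthase family, was at 3.05 and 5.51 with mock and 8.27 and 7.76 with CK (3.73), and AT2G36180, a putative calmodulin-related protein, was at 4.22 and 5.39 with mock and 8.34 and 8.16 with CK (3.45). Mock 1 was not well above background at either gene. Without it the increases were 2.50 and 2.86, without mock 2 they were 4.96 and 4.04, with the deposited values 2.02 and 2.18, and with normexp 1.72 and 1.88.

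Besides ARR16, 2 unnamed probes were among the 3 with the largest fitted increases, although their order cannot be given, since their mock level is a bound. A_84_P18365 had signals of 2.45 and 2.44 on the mock arrays, where it was not well above background, and 8.59 and 8.07 on the CK arrays. A_84_P843444 had 2.47 and 4.05 with mock, again not well above background, and 8.86 and 8.56 with CK. Set against the lowest signal above background on the mock arrays, the increases in the main fit were at least 14.0-fold and at least 18.3-fold. Their adjusted p was 4.71e-07 and 5.99e-06 from limma. On the log2 scale the deposited table gave increases of 2.92 and 2.91 and normexp 2.43 and 2.47, smaller than these bounds. In untreated WT A_84_P843444 was at 8.70 and 8.82, level with CK, and A_84_P18365 at 4.60 and 4.22.

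Of 16 paired basic helix-loop-helix (bHLH) factors, 7 rose and none fell, with a median change of 0.68, where 13.7% of all paired genes rose. AT5G51780 went from 13.07 and 13.01 with mock to 15.17 and 15.16 with CK (2.12, adjusted p = 1.59e-06 from limma), and AT1G62975 from 12.58 and 12.89 to 14.43 and 14.41 (1.68). AT2G22750 rose by 3.03 from 5.53 and 6.66, and AT5G43175 by 1.74 from 5.26 and 5.84. The deposited table gave 2.34 and 1.04 for these dim genes, and normexp 2.11 and 0.86. RSL4, a bHLH factor of root hair growth, rose by 0.79, a call lost without mock 1 or CK 1 (adjusted p up to 0.0734). Without one array, 5 to 9 of the 16 rose.

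Of the 21 paired MYB factors, 6 rose and 2 fell, where 13.7% and 4.15% of all paired genes did. MYB32, a regulator of phenylpropanoid genes, rose by 0.75 from 12.11 and 12.21 to 12.94 and 12.89, and MYB305 rose by 0.93. MYB39 rose 2.15-fold, lost without mock 1, CK 1, or CK 2 (adjusted p up to 0.332). The 2 that fell were MYB31 (−0.64, lost without CK 2, adjusted p = 0.0510) and AT2G03500. AT2G03500 was at 11.60 and 11.55 with mock and 10.60 and 10.58 with CK, lost without any one of the 4 arrays (adjusted p up to 0.108). The MYB count was 2 to 5 that rose with an array left out, 2 of them without mock 1, 2 without CK 1, and 3 without CK 2. Of 5 WRKY factors, WRKY71 fell, from 8.52 and 8.34 to 7.39 and 7.18 (−1.15, adjusted p = 3.84e-05 from limma). Of 9 NAC factors tested, NAC101 and NAC053 were called, and the small difference of 0.30 at NAC053 was lost without any one array (adjusted p up to 0.209).

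The 4 genes of the thalianol cluster, neighbouring genes that make a root triterpene, all rose. The acyltransferase gene AT5G47980 was at 11.47 and 12.22 with mock and 15.01 and 14.85 with CK, an increase of 3.09 (standard error 0.21, adjusted p = 3.91e-06 from limma). The synthase gene THAS1 rose by 1.02 and the cytochrome P450 genes CYP708A2 and CYP705A5 by 0.98 and 0.93, the smaller changes of the 4. At these 3 genes mock 1 was the lowest array, at 12.95, 13.81, and 13.85, and mock 2 was at 13.57, 14.47, and 14.38. The call of THAS1 was lost without mock 1 or CK 1 and that of CYP708A2 without mock 1, CK 1, or CK 2 (adjusted p up to 0.0870 and 0.0889). In untreated WT CYP708A2 and CYP705A5 were at 14.78 to 14.98, close to their CK levels of 15.01 to 15.13. Over all 19 cytochrome P450 genes, 5 rose and 1 fell. The latter was CYP94C1 (−0.75), whose call was lost without mock 2, CK 1, or CK 2 (adjusted p up to 0.116). CYP82F1 rose from 11.38 and 11.75 to 14.09 and 13.93 (2.44), CYP87A2 from 12.75 and 13.02 to 14.64 and 14.67 (1.77), and CYP89A7 2.17-fold, lost without mock 1, CK 1, or CK 2 (adjusted p up to 0.416). With an array left out, 3 to 8 of the P450 genes rose, 3 of them without mock 1, CK 1, or CK 2 and 8 without mock 2. Of 14 UDP-glycosyltransferases, 3 rose, among them UGT76D1 (1.60) and AT3G22250 (1.52, lost without mock 1, adjusted p = 0.0725).

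Of 8 paired expansins, 4 rose and none fell, with a median change of 0.83. EXPA12 was at 5.44 and 6.33 with mock and 8.68 on both CK arrays (2.80, adjusted p = 0.000126 from limma, or 2.08 in the deposited table and 1.85 with normexp), and its untreated level was 5.14 and 6.09, close to mock. EXPA8 and EXPB1 rose over mock by 1.05 and 0.65 and stayed below untreated WT. EXPB1 was at 9.66 and 9.92 with mock, 10.43 and 10.44 with CK, and 11.79 and 12.01 in untreated WT, and EXPA8 at 8.17 and 8.57, 9.40 and 9.44, and 9.95 and 10.71. The call of EXPA8 was lost without mock 1, CK 1, or CK 2 (adjusted p up to 0.169) and that of EXPB1 without mock 1 or CK 2 (up to 0.0838), so that 2 of the expansins rose without mock 1 or CK 2. Among 11 root hair genes, RSL4 and the peroxidase gene RHS18 rose, and neither call was made without mock 1 or CK 1. RHS18 was at 10.36 and 11.01 with mock, 11.97 and 11.83 with CK, and 12.61 and 13.18 in untreated WT. These 2 genes are also the root markers that were called, and the part of the summed marker signal in these results was not tested. Of 17 class III peroxidases, RHS18 and AT2G34060 (0.83) rose, and without mock 1 or CK 1 it was AT2G34060 of this pair that kept its call.

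**Figure D4:**
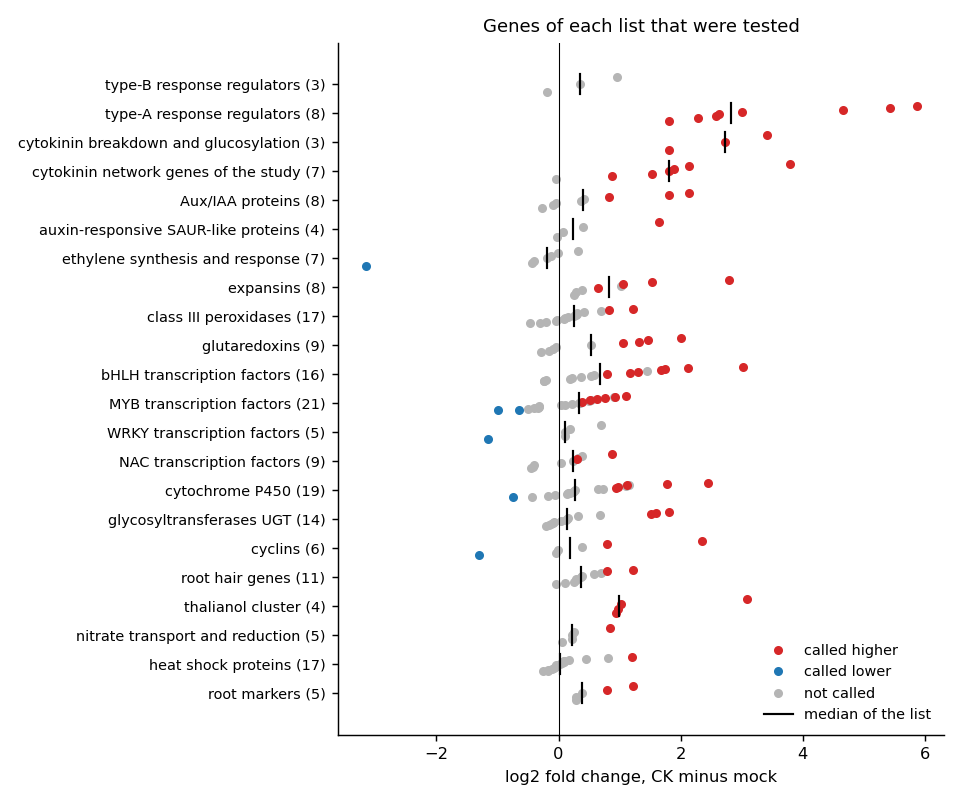
Log2 fold change of CK over mock (horizontal axis) for each tested gene of the lists with at least 3 tested genes (number in parentheses), red where called higher, blue where called lower, grey where not called, with a black line at the list's median. All type-A ARRs lie between 1.81 and 5.87, and the medians of the lists outside the cytokinin lists lie between −0.18 and 1.00.

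Of the auxin genes, 3 of 8 Aux/IAA repressors rose. IAA5 went from 7.28 and 7.73 with mock to 9.69 and 9.58 with CK (2.13, adjusted p = 1.42e-05 from limma), SHY2 as given above, and AXR3 from 13.16 and 13.44 to 14.10 and 14.16 (0.83). The 3 calls were made with any one array left out, and that of AXR3 was lost in the fit on the 4 arrays (adjusted p = 0.0787). IAA6, IAA8, IAA10, IAA13, and IAA31 had differences of −0.28 to 0.41 that did not pass the test. SAUR9 rose by 1.64 (1.04 with normexp) among 4 genes listed by annotation as auxin-responsive or SAUR-like. The auxin efflux carrier PIN6 (0.42) was not called. Of 7 genes whose annotation names ethylene, 1 was called. ACS5, whose annotation does not, is given above and rose. AT5G10120, a relative of the ethylene transcription factor EIN3, was at 9.26 on mock 1, 7.49 on mock 2, and 4.71 and 5.72 on the CK arrays, and changed by −3.16 (standard error 0.79, adjusted p = 0.0329 from limma). Without mock 1 the change was −2.27 and the call was lost (adjusted p = 0.319), as it was without CK 1 (0.252), without CK 2 (0.0771), and with normexp (−1.91, 0.0511). EIN3 itself differed by −0.02. Of 5 nitrate transport and reduction genes, the transporter AT3G21670 rose by 0.84, lost without any one array (adjusted p up to 0.237), and the gibberellin 2-oxidase gene ATGA2OX1 (0.74) was not called.

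Of 9 paired glutaredoxins, small proteins of thiol redox reactions, 4 rose with CK and none fell. Against untreated WT, 3 of the 9 were called higher with mock and 2 lower. Slide and treatment cannot be told apart in this comparison. AT4G15690 was at 7.77 and 7.59 in untreated WT, 9.79 and 9.43 with mock, and 11.18 and 10.97 with CK, and AT4G15680 at 8.23 and 8.04, 10.66 and 10.25, and 11.74 and 11.81. Mock was higher than untreated by 1.94 and 2.32 (adjusted p = 0.000670 and 0.000344 from limma), and CK was higher than mock by 1.47 and 1.32 (adjusted p = 0.00808 and 0.0249 from limma). AT2G30540, the third gene higher with mock than untreated (by 1.08, adjusted p = 0.0140 from limma), was at 6.12 and 6.67, 7.84 and 7.11, and 9.32 and 9.63. AT4G15680 and AT4G15690 belong to a row of very similar genes, and it is not known here whether their probes tell them apart. The call of AT4G15680 was lost without any one array (adjusted p up to 0.143) and that of AT4G15690 without mock 2 or CK 1 (up to 0.0781), which left 2 glutaredoxins that rose without CK 1 or without mock 2. GRXS13 rose by 1.06 from 13.56 and 13.65 to 14.68 and 14.66.

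**Figure D5:**
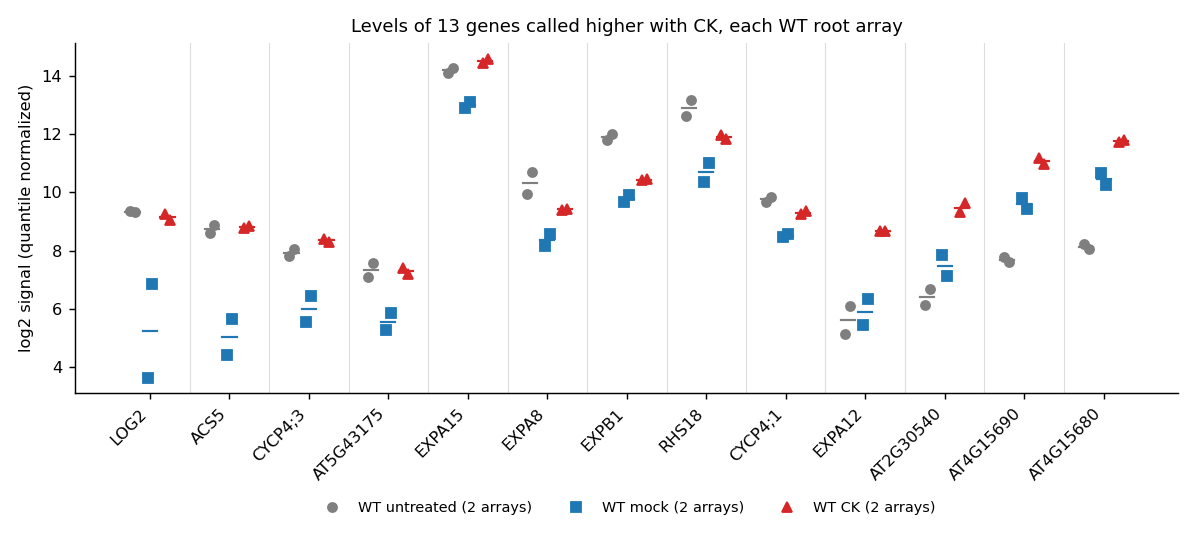
Log2 signal (vertical axis) of 13 genes called higher with CK on each WT array, grey circles for untreated, blue squares for mock, and red triangles for CK, with a short line at each group mean (2 arrays). The genes were chosen for display after their values were seen. From LOG2 to CYCP4;1 the mock arrays lie below the untreated arrays, at EXPA12 the 2 groups overlap, and at the 3 glutaredoxins the mock arrays lie above the untreated arrays.

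Of 6 cyclins, 2 rose and 1 fell. The P-type cyclins CYCP4;3 and CYCP4;1 rose over mock by 2.35 and 0.79, CYCP4;3 from 5.55 and 6.44 to 8.39 and 8.30 (1.72 in the deposited table, 1.52 with normexp). Untreated WT was at 7.81 and 8.05 for CYCP4;3 and at 9.67 and 9.85 for CYCP4;1, above its CK level of 9.25 and 9.35. CYCD1;1, a D-type cyclin of the G1 phase, went the other way, from 8.39 and 8.18 to 7.07 and 6.90 (−1.30, adjusted p = 0.00585 from limma, lost without mock 1 or CK 2, adjusted p up to 0.0643). Of the 17 genes on the heat shock list, which was drawn from gene annotations, 1 (AT1G30280, 2.30-fold) rose, with a median of 0.02 for the list. No gene of the brassinosteroid synthesis or jasmonate lists was paired. Outside the cytokinin lists, 39 of 166 genes of all lists rose and 6 fell, with a median change of 0.23, where 13.7% and 4.15% of all paired genes rose and fell. The counts were 23 and 3 without mock 1, 24 and 3 without CK 1, 28 and 1 without CK 2, 42 and 4 without mock 2, and 12 and 2 in the fit on the 4 arrays.

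Fewer of the paired genes fell with CK. Some of these were at background with CK, so that the size of the fall has at most a lower bound. AT1G11920 is a pectate lyase gene, OLEO1 the gene of a seed oil body protein, and AT1G69572 a non-coding RNA. None was well above background on either CK array, and all were called lower (adjusted p = 0.0493, 0.0270, and 0.0155 from limma). AT1G69572 fell at least 1.70-fold. AT1G11920 and OLEO1 were above background on mock 2 and not on mock 1. Their falls against the background of the CK arrays, 1.37-fold and 1.61-fold, rest partly on that mock 1 signal and are not lower limits. The deposited table gave log2 changes of −0.63, −0.54, and −0.60 for these genes, and normexp −0.47, −0.44, and −0.47. At OLEO1 and AT1G69572 these changes were smaller than the fold values above, which belong to the main fit. In the deposited table AT1G11920 and OLEO1 were not called (adjusted p = 0.0742 and 0.300). AT1G11920 was not called without any one array either (adjusted p up to 0.301), OLEO1 without mock 2 or CK 1 (up to 0.268), and AT1G69572 without mock 1 or CK 2 (up to 0.148).

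Other falls were at genes well above background on all 4 arrays. SKOR, a channel that releases potassium into the xylem, was at 9.44 and 9.19 with mock and 7.68 and 7.88 with CK (−1.54, standard error 0.26, adjusted p = 0.00338 from limma). MC8, a metacaspase, was at 9.33 and 9.56 with mock and 8.09 and 7.82 with CK (−1.49), and AT4G39675, an unknown protein, at 13.02 and 12.30 with mock and 11.05 and 10.85 with CK (−1.71). These 3 calls were made with any one array left out, and that of AT4G39675 was lost in the fit on the 4 arrays (adjusted p = 0.0878). CLE7, a small signalling peptide gene, was at 8.47 and 8.58 with mock and 6.78 and 6.77 with CK, but its call was lost without any one array (adjusted p up to 0.0906). The unknown proteins AT2G22460 and AT5G54790 changed by −2.12 and −1.91. The first call was lost without mock 1, mock 2, or CK 2 (adjusted p up to 0.174) and the second without CK 2 (0.0795), and normexp gave −1.16 and −1.21.

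The 3 probes with the largest fitted falls had no gene name and were not well above background with CK, so that their falls are bounds and have no order. A_84_P210738 was at 6.95 and 5.27 with mock and 2.38 and 2.33 with CK, A_84_P824336 at 6.70 and 6.74 with mock and 3.51 and 3.20 with CK, and A_84_P537320 at 6.05 on mock 2 (its spot on mock 1 was an outlier and was dropped from the fit) and 2.36 and 2.32 with CK. In the main fit they fell at least 3.19-fold, 4.88-fold, and 3.07-fold. The deposited table gave log2 changes of −1.07, −1.20, and −1.14 and normexp −0.83, −0.92, and −0.85, smaller than these bounds. A_84_P824336 was not called without any one array (adjusted p up to 0.205) or in the deposited table (0.0863). A_84_P210738 had a fitted change of −2.92 without mock 1 and −4.59 without mock 2.

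The same probes were looked up in the untreated mutants, whose arrays and untreated WT controls are not part of the CK comparison. Of the 1206 probes that rose with CK, 697 (57.8%) were called lower in the triple mutant arr1/10/12, where 31.1% of all probes were, and 196 (16.3%) were called higher, where 23.2% of all were. Of the 1032 that fell with CK, 380 (36.8%) were higher and 374 (36.2%) lower in arr1/10/12. In arr1/12, 148 (12.3%) of the probes that rose were called lower, beside 1.37% of all probes. The counts were 58 (4.81%, beside 0.441%) in arr1/10 and 9 (0.746%, beside 0.0911%) in arr10/12. In the single mutants they were 6 in arr1 (0.498%, beside 0.0529%), 0 in arr10 (beside 0.0264%), and 2 in arr12 (0.166%, beside 0.0676%). Probes that rose with CK were also called higher above the share of all probes. These were 30 in arr1/12 (2.49%, beside 1.43%), 11 in arr1/10 (0.912%, beside 0.523%), and 9 in arr10/12 (0.746%, beside 0.214%). Of the single mutants, arr1 had 3 (0.249%, beside 0.047%), arr10 0 (beside 0.0176%), and arr12 1 (0.0829%, beside 0.0588%). The comparisons share the estimate of each probe's spread, so a probe with a small spread is called more readily in both, and no test of the overlap was made. The share lower in arr1/10/12 was 64.2% without mock 1, 61.3% without CK 1, 63.1% without CK 2, and 45.2% with array weights.

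Values for the named genes in the mutants follow, although these genes were paired through lists made from the mutants, so their direction there is no independent evidence. All 8 type-A ARRs that rose with CK were called lower in arr1/10/12, with changes of −2.58 to −5.34, 5 of them in arr1/12, 3 in arr1/10, and none in arr10/12. ARR16 changed by −5.06 in arr1/12 and −4.51 in arr1/10/12, and ARR15 by −1.57 and −5.34. Of the 19 genes of the cytokinin lists that rose with CK, 18 were lower in arr1/10/12. The exception was UGT85A1, which was higher there by 1.56. SAUR9 was also higher in arr1/10/12 (by 1.57), and AT4G39675, which fell with CK, was higher there by 2.80, whereas CLE7 and AT2G22460, which fell with CK too, changed by −3.09 and −3.18 there.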

How the data were processed

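Each sample of root RNA, labelled with Cy3, was measured on 1 Agilent array with 1 colour. The authors deposited the Agilent Feature Extraction (version 10.7.1.1) output, with the background-subtracted intensity of each of 62976 spots, its median and local background intensity, and its flags, not normalized between arrays. They also deposited a log2 table, which equals the quantile normalized log2 median intensity without background subtraction, with the 4 mock and CK arrays normalized apart from the other 16 (largest difference 5e-09). The log2 intensities of the 61657 non-control spots were quantile normalized over the 20 arrays, outlier spots were left out, and spots of a probe were averaged (43603 probes, 25549 on 1 spot). A probe had to be well above background in both replicates of some group (34034 were), and limma 3.58.1 in R 4.3.3 was fitted with 1 coefficient per group (10 residual and 2.11 prior degrees of freedom). No non-control spot was saturated, and the median standard error was 0.161. The precision is limited by having 2 arrays a group.

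A probe not well above background on a group's arrays has only a bound there. It was set from the lowest spot signal well above background on each array, or the probe's own where higher. The bounds hold for the main fit and not for the other settings. A fall has no lower limit where a mock array was also not well above background. Genes were named by matching the mutant-minus-WT means of the deposited table to the study's gene list within 5e-04 (identity only), and each of 2072 genes matched 1 spot. Of these, 2052 had a RefSeq locus for the symbol, and the copy of the list used here is not complete. The value given is that of the whole probe.

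The text names every paired gene of the cytokinin lists, the 10 paired genes with the largest change in each direction among those called with both CK arrays beyond both mock arrays, the 3 such probes of all, and up to 4 called genes of each other list. CYP94C1, MYB31, EIN3, PIN6, ATGA2OX1, LHB1B1, and the Aux/IAA genes not called are named beyond this rule. The comparison, its gene lists, and this rule were chosen with earlier results of these data known. The methods' integrative test was not run. The fit was tested on simulated data with independent noise and no slide or scan day effect. Of 200 changed probes, 15, 126, and 182 were called at log2 changes of 0.5, 1, and 2, with 0, 8, and 10 false calls. Many changes of 0.5 to 1 are therefore missed, and the simulation does not cover an array like mock 1. Other steps used Python 3.11.15, numpy 2.4.6, pandas 2.3.3, scipy 1.17.1, and matplotlib 3.10.9.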

Additional observations from a re-analysis of the deposited data

How the results depend on the processing

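Normexp replaced the processed intensity with the median pixel intensity, since the files used here hold no mean, and the deposited table changed the intensity, the background, and the arrays normalized together. Under 75th percentile scaling, normexp correction, the deposited table, dim probes all kept, probes above background on all arrays, and outlier spots kept, both counts of calls stayed within 1.5 times of 1206 and 1032. Probes above background on all arrays included 5 type-A ARRs, all called. In the fit on the 4 arrays, 371 probes rose and 243 fell (371 and 244 when normalized apart as well), with 12 and 2 of the genes outside the cytokinin lists, and 61.2% of the increases lower in arr1/10/12. At a log2 change of at least 1 the counts were 528 and 262, with 25 and 3 of those genes, and 53.2% of the increases lower and 27.5% of the decreases higher in arr1/10/12. Array weights gave 2036 and 1756, with 10 of the genes outside the cytokinin lists falling, and 45.2% and 28.1%. Without adjustment, the methods' t-test gave 3196 and 2433, with 10 falling, and 37.0% and 32.3%. After Benjamini-Hochberg adjustment it gave 1 increase, which was not lower in arr1/10/12 (0%), and 0 decreases, with 0 genes of any list, whereas limma at an unadjusted p under 0.05 gave 3295 and 2733.

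Leaving out an array gave 565 to 1316 increases and 474 to 993 decreases, 23 to 42 increases and 1 to 4 decreases outside the cytokinin lists, and 57.5% to 64.2% of the increases lower in arr1/10/12. A group left with 1 array is assumed to vary like the others. Of 76 named genes and probes that were called, 52 kept their call in each such fit, 68 under the other limma settings on 20 arrays with no minimum change, 57 when a log2 change of at least 1 is added to these, and 37 in the fit on the 4 arrays. Among the 52 is A_84_P537320, which had only 3 such fits, since it has no mock value without mock 2. No called change turned its direction.

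The replicate numbers did not pair mock and CK (deviations correlated at −0.04), and they coincide with the scan day. Between mock and untreated WT the deviations correlated at 0.30. A replicate block over 20 arrays gave 2048 and 1839, and 53.7% of the increases lower in arr1/10/12. With the block on the 4 arrays, limma called 0 and 0, and 0 genes of any list.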
